A study of Mus musculus with 15 samples.

Results

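The resting transcriptome of tibial subchondral bone in sham-operated wild-type mice was described from 5 of the 15 libraries of the study, those whose table columns carry the sham names. Each library came from a male C57BL/6J mouse of wild-type genotype that had surgery at 8 weeks of age, in which the capsule of the knee was opened and the ligament of the medial meniscus was not cut, and that was killed 8 weeks later. The remaining 10 libraries belong to mice with destabilization of the medial meniscus, 5 of them wild-type and 5 carrying Dmp1-Cre with floxed Pvalb, and were not used here. Frozen bone was ground whole, poly(A) RNA was enriched and strand-marked libraries were sequenced, so every cell type left in the dissected piece contributed RNA. In such bulk samples fewer cells of a type and less RNA per cell cannot be told apart. The labels call the 5 libraries biological replicates, and they are named sham 1 to sham 5 here.

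Subchondral bone is the plate and spongy bone under the joint cartilage. Osteoblasts lay down its collagen and mineral-binding proteins, osteocytes derived from them sit inside the matrix and signal through secreted factors such as sclerostin, and osteoclasts resorb it with acid and cathepsin K. The spaces between its trabeculae hold marrow, where red cells, granulocytes, platelets and B cells are made. Articular and calcified cartilage lie on the joint side, and fast skeletal muscles attach close to the dissected region.

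Levels were deposited as FPKM, fragments normalised to gene length and to the library's fragment total, which are comparable between genes of different length. The 55335 gene IDs of the table summed to between 388072 and 423193 FPKM per library, and 12961 to 13440 IDs per library reached 1 FPKM. Read counts were not part of the table, so the depth was unknown; the commonest ratio among low values put the fragment totals of sham 2 to sham 5 at 0.963, 1.01, 0.957 and 0.822 of that of sham 1. No 2 of the libraries were identical, and Pearson's r across genes, which are not independent replicates, ran between 0.907 for sham 2 and sham 4 and 0.966 for sham 3 and sham 5. The male label fitted the values: Xist, the RNA that silences an X chromosome in females, was at most 0.0113 FPKM, and the Y-linked gene Eif2s3y was between 15.7 and 17.9 FPKM.

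Markers of the 3 bone cell types were present, though not every listed gene was. Col1a1 and Bglap of osteoblasts, Sost and Dmp1 of osteocytes, and Acp5 and Ctsk of osteoclasts were above 10 FPKM in each of the 5 libraries. Phex, also a defining osteocyte marker, stayed below 10 FPKM. A mean of at least 5 FPKM was reached by 20 of 21 osteoblast and matrix genes, 5 of 10 osteocyte genes and 9 of 14 osteoclast genes. The skin keratin Krt14 was listed at 0 in each library, and Krt5 did not exceed 0.0464 FPKM. Markers of cartilage, marrow and muscle were present as well, at levels given with each gene group.

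The transcriptome was concentrated in few genes. Between 58 and 93 gene IDs held 50% of all FPKM in a library, and the 20 most abundant IDs of each library held 37.3% to 42.1%. Over the 5 libraries 13290 IDs had a mean of at least 1 FPKM, 364 reached 100 FPKM and 31 reached 1000 FPKM. Protein-coding genes took 85.5% to 90.5% of the total.

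Among the 20 IDs with the highest mean, 4 encoded adult hemoglobin chains, 5 were neutrophil or monocyte products, 6 were encoded by the mitochondrial genome, 4 were nuclear copies of mitochondrial genes and 1 was a microRNA locus. None was a bone or cartilage gene; the bone gene with the highest mean, Col1a1, ranked 39. The alpha-globin gene Hba-a1 (ENSMUSG00000069919) was 24063, 20807, 32851, 29829.5 and 21611 FPKM in sham 1 to sham 5. Hbb-bs (ENSMUSG00000052305), a beta-globin gene, was 23116, 19624, 27185, 27499.8 and 20553 FPKM. Sham 3 and sham 4 were the highest libraries for both and sham 2 the lowest. The 4 globin genes Hba-a1, Hba-a2, Hbb-bs and Hbb-bt summed to 21.6, 17.7, 25.04, 26.1 and 18.3% of total FPKM.

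The ratio of alpha-chain to beta-chain transcripts stayed near 1, at 1.12, 1.15, 1.297, 1.17 and 1.15. Hba-a1 and Hba-a2 are near-identical copies whose reads the authors' counting may have split, so their ratio of 1.201 ± 0.0139 (SD, n = 5) describes the table rather than either gene. S100a9 and S100a8 form calprotectin, the calcium-binding complex that fills neutrophil cytoplasm. S100a9 was 10178, 9495, 12989.6, 10722 and 9789 FPKM and ranked 5. S100a8 was 4139, 3563, 4849, 4070.2 and 3709.5 FPKM and ranked 10, and the ratio of S100a9 to S100a8 was 2.62 ± 0.0892 (SD, n = 5). Ngp, a neutrophilic granule protein, was 4923, 4480.2, 5595, 5121 and 4993 FPKM and ranked 7. Lyz2, the lysozyme of macrophages and granulocytes, was 3154, 2802, 3121, 3247 and 2999 FPKM and varied least of the 20, with a 1.16-fold distance between its highest and lowest library.

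**Figure D1:**
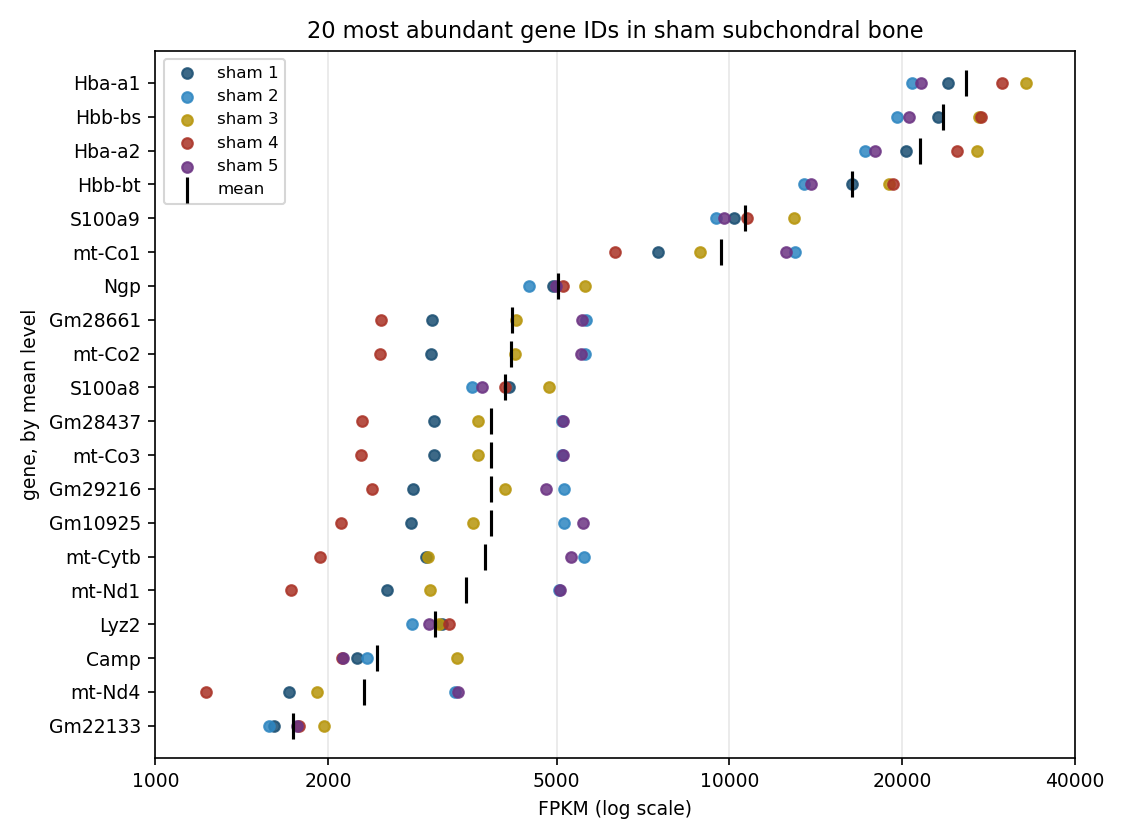
FPKM of the 20 gene IDs with the highest mean, on a log axis, with a point per sham library and a bar at the mean of 5 libraries. The globin genes lead, from 25832 FPKM for Hba-a1, and the mitochondrially encoded genes and their nuclear copies show sham 2 and sham 5 on the right and sham 4 on the left.

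The mitochondrial genome encodes subunits of the respiratory chain, and its transcripts took 7.03, 12.4, 7.46, 5.21 and 12.3% of total FPKM in sham 1 to sham 5. mt-Co1, a core subunit of cytochrome c oxidase, was 7519.7, 13005, 8876, 6321 and 12569.7 FPKM. mt-Nd6, a complex I subunit, was 417, 741, 372, 172 and 922 FPKM. Its span of 5.36-fold was the widest of the mitochondrial genes above 100 FPKM, with transfer RNA genes left out. Sham 2 and sham 5 were the 2 highest libraries for each of these genes and sham 4 the lowest. Over all 7585 genes with a mean of at least 5 FPKM, 18.4, 10.2, 24.5, 32.4 and 14.4% were highest in sham 1 to sham 5 and 11.0, 27.9, 20.8, 15.3 and 25.1% were lowest there. Of the 26 mitochondrial genes with a mean of at least 5 FPKM, 26 were lowest in sham 4, 13 were highest in sham 2 and 12 in sham 5.

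Besides these, 10 nuclear pseudogene IDs matched a mitochondrial gene at 95% identity or more and held another 3.48, 6.18, 4.12, 2.71 and 6.12% of total FPKM. Gm28437 was at 3849 FPKM on average, as was mt-Co3, to which it is identical over 783 bases. Of the 10 copies, 3 lay within 1% of their mitochondrial gene in each library, and 3 others stayed under 100 FPKM. Among the rest, Gm10925, identical to mt-Atp6 over 678 bases, averaged 3836 FPKM, against 780 FPKM for mt-Atp6. Gm28439 and Gm29216 lay below mt-Nd4 and mt-Co1, and Gm28438 differed from mt-Nd3 by at most 1.48%. The sources used here do not say how the authors' counting shared reads between the pairs, so the levels of both members of a pair are uncertain. Cytosolic ribosomal protein genes, 78 in all, took 4.297, 3.97, 4.65, 4.42 and 4.06% of total FPKM, and 74 of the 78 were highest in sham 3, beside 24.5% of all 7585 genes.

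Promoter sequences are shown for 8 genes: the 2 leading globin genes and S100a9 from the most abundant, the bone gene osteocalcin, 2 muscle genes that stood among the most variable, and the 2 most stable genes. Each is the 120 bases before the annotated start in RefSeq's table for GRCm38.p6, another build than the files'. Capitals mark TATAA, the core of the TATA box, on either strand in the last 50 bases, CCAAT on either strand (ATTGG where it lies on the other strand), and the CArG box.
Hba-a1 (chr11:32283552-32283671, plus strand): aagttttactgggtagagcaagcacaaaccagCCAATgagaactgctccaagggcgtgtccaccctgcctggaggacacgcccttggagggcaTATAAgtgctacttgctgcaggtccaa
Hbb-bs (chr7:103827929-103828048, minus strand): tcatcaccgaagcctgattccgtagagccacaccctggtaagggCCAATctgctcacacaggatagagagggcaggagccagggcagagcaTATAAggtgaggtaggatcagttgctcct
S100a9 (chr3:90695722-90695841, minus strand): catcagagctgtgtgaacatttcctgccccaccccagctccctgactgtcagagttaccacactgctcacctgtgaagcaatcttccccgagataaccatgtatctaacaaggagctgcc
Bglap (chr3:88384467-88384586, minus strand): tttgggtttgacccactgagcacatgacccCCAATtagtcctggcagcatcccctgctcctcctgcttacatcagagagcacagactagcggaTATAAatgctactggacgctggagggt
Acta1 (chr8:123894776-123894895, minus strand): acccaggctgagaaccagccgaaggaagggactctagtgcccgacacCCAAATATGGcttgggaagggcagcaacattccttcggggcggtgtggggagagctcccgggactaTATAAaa
Ckm (chr7:19410974-19411093, plus strand): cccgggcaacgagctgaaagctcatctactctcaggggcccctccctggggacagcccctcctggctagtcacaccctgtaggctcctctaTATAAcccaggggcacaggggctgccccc
Cwc15 (chr9:14500499-14500618, plus strand): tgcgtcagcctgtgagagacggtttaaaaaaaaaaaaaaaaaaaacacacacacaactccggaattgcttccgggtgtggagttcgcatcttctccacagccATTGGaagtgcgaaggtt
Rab31 (chr17:65772753-65772872, minus strand): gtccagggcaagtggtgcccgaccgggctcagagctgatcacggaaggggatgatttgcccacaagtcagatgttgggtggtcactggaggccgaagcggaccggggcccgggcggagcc

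TATAA lay in 5 of the 8 windows, those of both globin genes, Bglap, Acta1 and Ckm, and CCAAT in 4, those of both globin genes, Bglap and Cwc15. A CArG box, the site read by serum response factor in muscle genes, lay in that of Acta1 alone, and the windows of S100a9 and Rab31 held none of the 3 motifs. For comparison, among all 27025 promoters of the table, 6.70% held TATAA on either strand in the last 50 bases before the start. In the same 120 bases CCAAT lay on either strand in 22.1% of them and a CArG box in 0.740%. These matches describe letters in a window and do not show that a factor binds there. The table held a promoter for 74.2% of the 7585 genes ranked for spread and for 41% of the 100 most variable, so a comparison of motif shares between gene groups is void.

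The share of total FPKM was next summed over listed genes of 4 compartments. Marrow genes, 123 in number, took 32.9, 27.4, 35.6, 36.6 and 27.6% in sham 1 to sham 5, a mean of 32.01% ± 4.36 (SD, n = 5). Bone genes, 45 of them, took 1.53, 1.48, 1.07, 0.957 and 1.52%, a mean of 1.31% ± 0.277. Cartilage genes, 22 of them, took 0.275, 0.383, 0.237, 0.164 and 0.546%, a mean of 0.321% ± 0.148. Muscle genes, 47 of them, took 0.235, 1.55, 0.795, 0.0473 and 1.31%, a mean of 0.787% ± 0.653. Marrow transcripts thus exceeded bone transcripts in each library, by 21.4, 18.5, 33.3, 38.3 and 18.1 times, with sham 3 and sham 4 highest. The span between the highest and the lowest library was 1.34-fold for marrow, 1.604-fold for bone, 3.33-fold for cartilage and 32.8-fold for muscle.

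Sums of this kind depend on the genes listed and on a few abundant ones. Leaving the 4 globin genes out of the list and of the total, an alternative chosen after seeing the data, lowered the mean marrow share to 13.2%. Leaving out members that other listed cell types also express lowered bone to 0.790% and cartilage to 0.154%. Muscle's mean rested on sham 2, sham 5 and sham 3: sham 4 held 0.0473% and sham 1 held 0.235%.

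**Figure D2:**
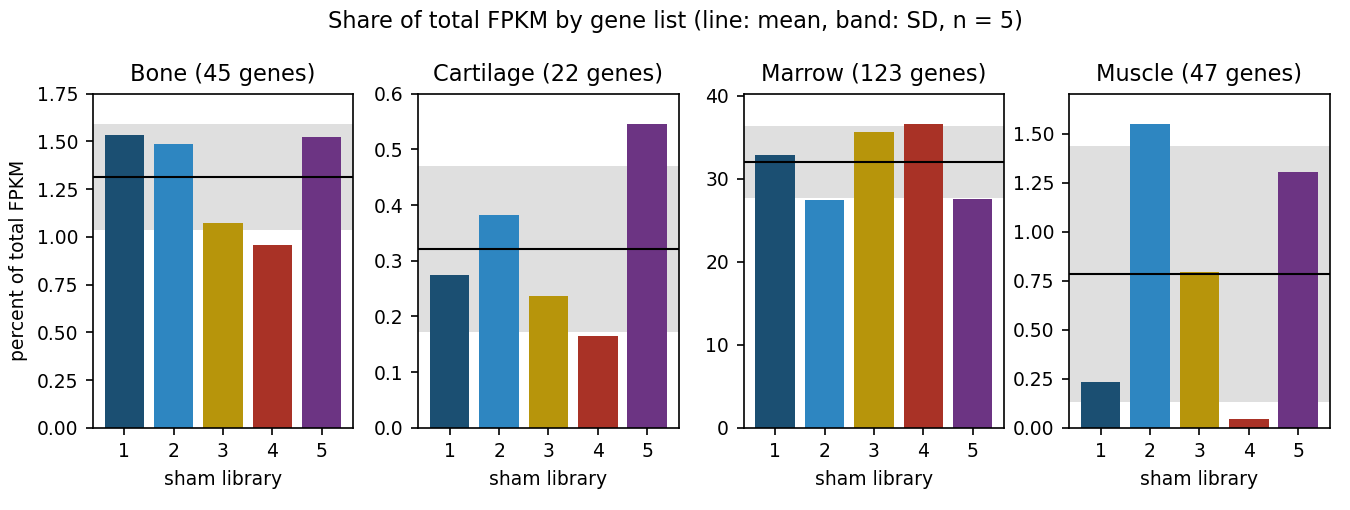
Percent of total FPKM taken by the listed genes of 4 compartments in each sham library, with the mean as a line and the SD as a band (n = 5); the 4 axes differ in scale and start at 0. Marrow lies between 27.4% and 36.6%, while muscle lies between 0.0473% in sham 4 and 1.55% in sham 2.

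Among bone genes, those of the osteoblast and its matrix made up most of the share. Col1a1 (ENSMUSG00000001506), which encodes the main chain of type I collagen, was 966, 1143, 713, 631 and 887 FPKM in sham 1 to sham 5. Its partner chain Col1a2 was 467, 609, 382, 324 and 447 FPKM, and the ratio of the 2 chains was 1.95 ± 0.0827 (SD, n = 5). Sham 2 was highest and sham 4 lowest for both chains. Sparc, which encodes the collagen-binding osteonectin, was 655, 818, 585, 472 and 898 FPKM and was highest in sham 5. Bglap, osteocalcin, was 319, 634, 500.2, 328 and 326 FPKM and was highest in sham 2, as the collagens were, with sham 3 next and sham 1 lowest. Bglap2, a near-identical neighbour that may share reads with it, stood at a ratio of 1.02 ± 0.0367, so neither level is certain on its own.

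Spp1, osteopontin, was 1261, 529, 463, 331 and 1005 FPKM and varied most among the bone genes, with sham 1 and sham 5 high and the other 3 at or below 529 FPKM. Ibsp, bone sialoprotein, was 278, 231, 178, 147 and 365 FPKM and was highest in sham 5. The osteoblast transcription factor Sp7 was 12.96, 17.95, 13.8, 11.6 and 23.5 FPKM. Alpl, the phosphatase that frees phosphate for mineral, was 35.6, 40.9, 24.04, 20.97 and 59.5 FPKM. Both were highest in sham 5 and lowest in sham 4. Runx2, which starts the osteoblast programme, was 6.05, 6.52, 5.81, 5.95 and 6.996 FPKM and spread little, with an SD of log2(FPKM + 1) of 0.096.

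Osteocyte genes were lower and took 0.0497, 0.0351, 0.0235, 0.0203 and 0.0456% of total FPKM. Dmp1, a matrix phosphoprotein whose promoter drives the Cre of the study's knockout, was 99.6, 40.3, 31.8, 25.5 and 52.5 FPKM. Sham 1 was the highest library for Dmp1 and sham 5, at 52.5 FPKM, the next. Sost, which encodes the Wnt inhibitor sclerostin, was 22.4, 29.7, 21.4, 15.2 and 35.8 FPKM. Mepe, another matrix phosphoprotein, was 47.3, 40.98, 25.5, 20.3 and 62.2 FPKM. Sost and Mepe were highest in sham 5, and sham 4 was lowest for Dmp1, Sost and Mepe. Phex, the endopeptidase lost in X-linked low-phosphate rickets, was 6.404, 6.395, 4.32, 4.01 and 7.02 FPKM. Fgf23, the phosphate hormone of osteocytes, did not exceed 0.368 FPKM in any library.

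Osteoclast genes took 0.308, 0.224, 0.205, 0.224 and 0.313% of total FPKM. Acp5, tartrate-resistant acid phosphatase, was 337, 229, 208, 202 and 380.1 FPKM. Ctsk, the collagen-degrading cathepsin K, was 258, 204, 179.9, 158 and 307 FPKM. Sham 1 and sham 5 were the highest libraries for both, as they were for Spp1. Mmp9, a gelatinase that osteoclasts and neutrophils both make, was 430.02, 328, 338, 354 and 412 FPKM. The proton-pump subunit Tcirg1 and the chloride channel Clcn7, both also used outside osteoclasts, spanned 1.14-fold and 1.11-fold, against 1.88-fold for Acp5.

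Of the 34 bone genes with a mean of at least 5 FPKM, 20 were highest in sham 5 and 22 lowest in sham 4. Their median SD of log2(FPKM + 1) was 0.39, beside 0.12 over the 7585 genes with a mean of at least 5 FPKM. Over those 7585 genes 14.4% were highest in sham 5 and 15.3% lowest in sham 4.

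Cartilage genes moved more. Col2a1 (ENSMUSG00000022483), the collagen of hyaline cartilage, was 107, 117, 46.9, 41.1 and 221 FPKM in sham 1 to sham 5. Acan, the main cartilage proteoglycan, was 27.5, 30.9, 16.5, 15.4 and 56.6 FPKM. Sham 5 was highest and sham 4 lowest for both. Col10a1, the collagen of hypertrophic chondrocytes in growth plate and calcified cartilage, was 48.9, 44.2, 19.9, 14.4 and 96.2 FPKM and kept a ratio to Col2a1 of 0.409 ± 0.0433 (SD, n = 5). Prg4, the lubricin of the joint surface and synovium, was 76.6, 153, 91.9, 36.2 and 165 FPKM. Its order differed from that of Col2a1 in that sham 3 lay above sham 1.

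The cartilage-listed genes with the highest means were Chad and Cytl1. Chad, chondroadherin, was 275, 384, 276, 185 and 609 FPKM. Cytl1, a secreted protein of chondrocytes, was 182, 361, 278, 129 and 373 FPKM. Comp, a matrix protein of cartilage and tendon, was 90.2, 161, 104, 60.5 and 215 FPKM. Sham 5 was highest for these 3 and sham 4 lowest. All 18 cartilage genes with a mean of at least 5 FPKM were highest in sham 5, 13 were lowest in sham 4 and 5 in sham 3. Over all 7585 genes, 14.4% were highest in sham 5, 15.3% lowest in sham 4 and 20.8% lowest in sham 3. The median SD of the 18 cartilage genes was 0.74. The ratio of Col1a1 to Col2a1, which sets bone collagen against cartilage collagen, was 9.04, 9.79, 15.2, 15.4 and 4.02. It was lowest in sham 5 and highest in sham 3 and sham 4.

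Marrow genes held the largest share and the lowest median SD of the 4 compartments, 0.18 over the 104 members with a mean of at least 5 FPKM. That is above the 0.12 of all 7585 genes, and 89 of the 104 exceeded that overall median. Erythroid genes took 22.3, 18.2, 25.6, 26.9 and 18.8% of total FPKM. Alas2, the rate-limiting enzyme of heme synthesis in red cell precursors, was 538, 415, 557, 624 and 430.2 FPKM. Slc4a1, the band 3 anion exchanger of the red cell membrane, was 511, 389.6, 422, 603 and 374 FPKM. Sham 4 was the highest library for both and for 16 of the 20 erythroid genes, and sham 2 was lowest for 14 of the 20, beside 32.4% of all 7585 genes highest in sham 4 and 27.9% lowest in sham 2.

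Neutrophil genes took 7.24, 6.34, 8.03, 7.38 and 6.63% of total FPKM. Genes of early granule formation were measured beside those of mature cells. Elane, neutrophil elastase, was 712, 587, 771, 752 and 692 FPKM, and Mpo, myeloperoxidase, was 313, 271, 343, 357 and 308 FPKM. Retnlg, a secreted product of mature mouse neutrophils, was 1191, 1047, 1451, 1163 and 1119 FPKM. Sham 2 was lowest for the 3 genes and for 18 of the 21 neutrophil genes with a mean of at least 5 FPKM, beside 27.9% of all 7585 genes. Camp, the antimicrobial cathelicidin, was 2246, 2339, 3357, 2109.9 and 2123 FPKM, with sham 3 above the other 4.

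Eosinophil, basophil and mast cell genes took 0.507, 0.391, 0.435, 0.485 and 0.494% of total FPKM. Most of it was Prg2, eosinophil major basic protein, at 1040.1, 832, 989, 1005 and 1064 FPKM. Megakaryocyte and platelet genes took 0.289, 0.222, 0.243, 0.294 and 0.264%, led by Ppbp, a platelet chemokine, at 599, 466, 510.2, 605 and 565 FPKM. Monocyte and macrophage genes took 0.979, 0.822, 0.883, 0.998 and 0.893%, mostly Lyz2. C1qb, a complement chain made by macrophages, was 134, 93.6, 124, 130.2 and 121 FPKM and was lowest in sham 2. T and NK cell genes took 0.0321, 0.0255, 0.0321, 0.0321 and 0.0292%, and the T cell receptor chain gene Trbc2 was 11.2, 9.64, 9.88, 9.52 and 9.63 FPKM. The marrow stroma cytokine Cxcl12, which retains blood stem cells, was 101, 106, 96.2, 108 and 105 FPKM and spanned 1.13-fold.

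B cell genes had the widest span in share of the marrow lists, at 1.54, 1.44, 0.372, 0.529 and 0.414% of total FPKM. Sham 1 and sham 2 stood above the rest. A few abundant genes carried that share. Of the 19 members with a mean of at least 5 FPKM, 3 were highest in sham 1, 3 in sham 2 and 12 in sham 4, and 14 were lowest in sham 5. Over all 7585 genes, 18.4, 10.2 and 32.4% were highest in sham 1, sham 2 and sham 4, and 25.1% were lowest in sham 5. Ighm (ENSMUSG00000076617), the IgM heavy chain, was 2178, 2273, 441, 672 and 403 FPKM. Igkc, the kappa light chain constant region, was 3118, 2833, 637, 800.1 and 836 FPKM. Jchain, which joins IgM and IgA into polymers in antibody-secreting cells, was 196, 201, 48.5, 52.5 and 25.9 FPKM. Sham 1 and sham 2 lay above the other 3 libraries for Ighm, Igkc and Jchain.

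The B cell surface genes Cd79a and Ighd did not show that split. Cd79a, the signalling chain of the B cell receptor, was 103, 102, 102, 107 and 91.8 FPKM. Ighd, the IgD heavy chain of naive B cells, was 55.3, 56.4, 51.3, 65.3 and 53.4 FPKM. Vpreb1, part of the surrogate light chain of pre-B cells, was 10.1, 10.8, 11.9, 11.8 and 5.81 FPKM, with sham 5 lowest. The ratio of Ighm to Cd79a was 21.1, 22.4, 4.34, 6.27 and 4.39. Igha, the IgA heavy chain, was 55.4, 20.6, 115, 65.7 and 131 FPKM and ran in another order, with sham 5 and sham 3 highest and sham 2 lowest; it was chosen after its values were seen.

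Single variable segments, the exons that B cells join to make 1 antibody chain, varied further. Igkv12-46 was 473, 87.8, 10.7, 10.3 and 9.398 FPKM, with sham 1 highest. Igkv19-93 was 148, 392, 11.3, 34.2 and 10.7 FPKM and Ighv8-8 was 146, 204, 4.22, 4.101 and 5.13 FPKM, both with sham 2 highest and sham 1 next. Igkv4-63 was 247, 0.979, 2.104, 2.11 and 3.87 FPKM and Igkv10-94 was 7.93, 203, 3.98, 6.52 and 5.67 FPKM, each high in 1 library alone. Of the 99 variable segments with a mean of at least 5 FPKM, 29 were highest in sham 1 and 40 in sham 2, and 3, 13 and 14 in sham 3, sham 4 and sham 5. Over all 7585 genes, 18.4, 10.2, 24.5, 32.4 and 14.4% were highest in sham 1 to sham 5. The 99 segments had a median distance between highest and lowest library of 8.11-fold and a median SD of 1.13. A segment can reach a mean of 5 FPKM through its high libraries alone. Igkv4-51 did so at 38.5 FPKM in sham 2, with the next highest library, sham 3, at 0.466 FPKM. These counts and spreads are therefore partly set by the filter, and the 99 do not stand for all 218 annotated variable segments. Reads of similar segments may have been shared between them in counting.

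Muscle genes had the widest spread of the 4 compartments. Acta1 (ENSMUSG00000031972), the actin of skeletal muscle fibres, was 155, 1043, 542, 18.7 and 918 FPKM in sham 1 to sham 5, a 55.8-fold span. Ckm, muscle creatine kinase, was 68.98, 456, 289, 10.6 and 398 FPKM. Myh4, the myosin heavy chain of the fastest fibres, was 39.4, 269.9, 174, 6.18 and 225 FPKM. The order was the same for each of them: sham 2, sham 5, sham 3, sham 1 and sham 4, high to low. Mb, the oxygen store myoglobin, was 14.8, 147, 27.5, 1.73 and 123 FPKM in that same order, but with sham 3 nearer to sham 1.

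Pvalb (ENSMUSG00000005716), the calcium buffer of fast fibres and the gene that the study deleted in other mice, was 71.3, 490.1, 300.3, 15.8 and 402 FPKM. These are wild-type bones, and its order across the libraries was that of Acta1 and Ckm. Tnnc2, fast troponin C, was 76.6, 577, 334, 12.7 and 472 FPKM, and Tnnt3, fast troponin T, was 75.6, 566, 319, 16.05 and 479 FPKM. Atp2a1, the calcium pump of fast fibres, was 55.6, 389, 195, 7.87 and 324 FPKM. Of the 31 muscle genes with a mean of at least 5 FPKM, 30 were highest in sham 2 and 31 lowest in sham 4, and their median SD was 1.94. Over all 7585 genes, 10.2% were highest in sham 2 and 15.3% lowest in sham 4. A gene can reach a mean of 5 FPKM through its high libraries alone, so these 31 of the 47 muscle genes listed do not stand for the whole list.

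Fibre types were read from 4 myosin heavy chains, Myh1, Myh2, Myh4 and Myh7. Myh4 made up 78.1, 75.99, 90.7, 85.3 and 77.3% of their sum, and Myh7, the slow chain, at most 0.419%. The sum itself was 50.4, 355, 192, 7.25 and 291 FPKM. Myh2, another fast chain, took 1.398, 7.29, 2.15, 3.57 and 7.47%, with sham 2 and sham 5 highest. No slow muscle gene of the 8 listed reached a mean of 5 FPKM.

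Genes of other cell types were measured as well, and bulk samples do not show where in the dissected piece those cells lay. Fibroblast genes were highest in sham 5 for 11 of 12 members with a mean of at least 5 FPKM and lowest in sham 4 for 11 of 12. Over all 7585 genes, 14.4% were highest in sham 5 and 15.3% lowest in sham 4. Dcn, the collagen-binding decorin, was 45.7, 69.7, 51.04, 26.6 and 73.2 FPKM. Fn1, fibronectin, was 83.3, 109, 58.1, 47.4 and 116 FPKM. Of adipocyte genes, Adipoq, the hormone adiponectin, was 15.2, 21.3, 15.7, 16.4 and 19.6 FPKM and spanned 1.39-fold, while Cfd, adipsin, was 44.7, 69.8, 23.96, 14.1 and 85.2 FPKM. Thbs4, listed for tendon and ligament, was 8.34, 19.5, 10.5, 4.23 and 25.2 FPKM, with sham 5 and sham 2 highest. Plvap, a protein of fenestrated capillaries, was 29.5, 31.98, 26.8, 22.9 and 40.2 FPKM and highest in sham 5. Schwann cell genes stayed at or under 8.20 FPKM, the level of S100b in sham 5.

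**Figure D3:**
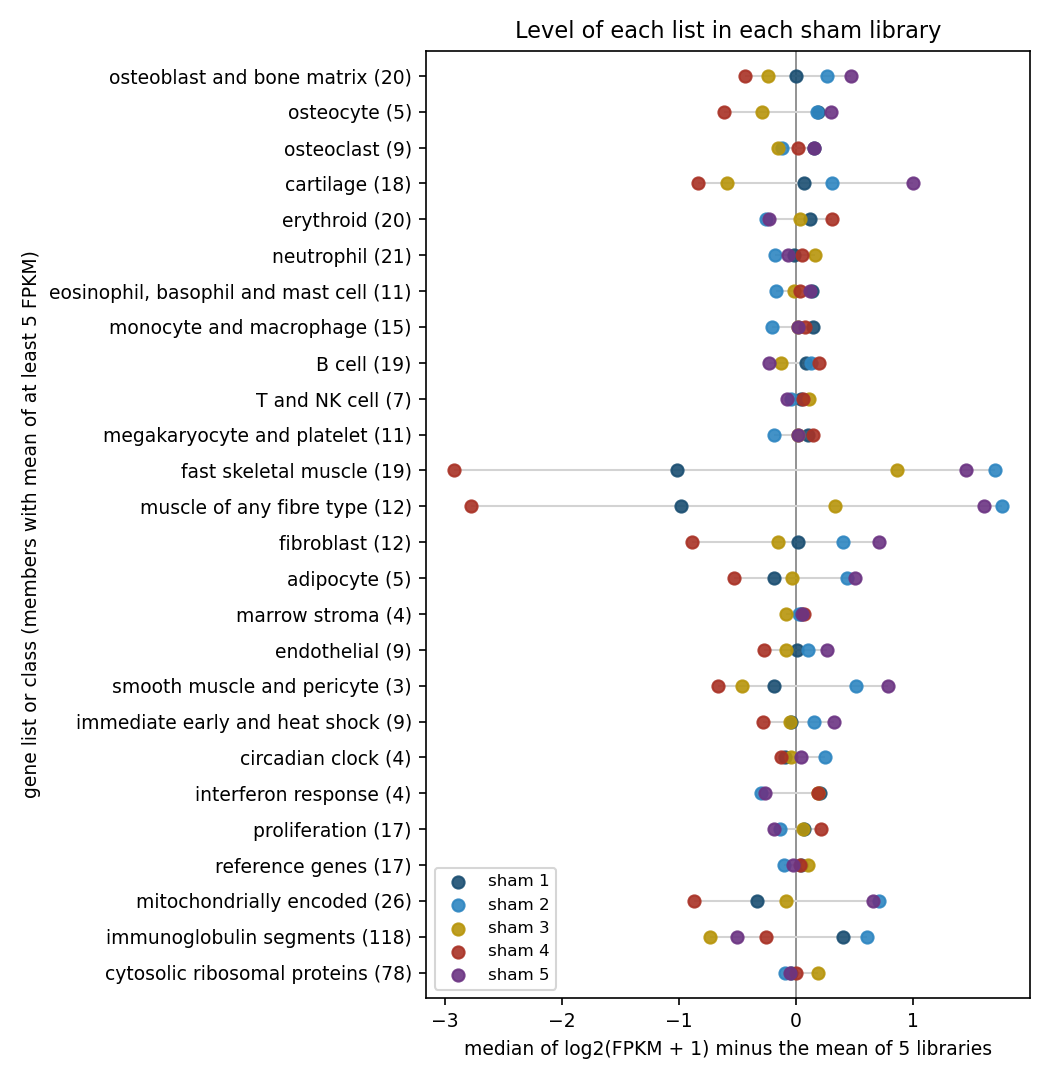
Level of each gene list or class in each sham library, as the median over members of log2(FPKM + 1) minus the member's mean over 5 libraries; the number of members with a mean of at least 5 FPKM is in brackets. Muscle lists run from -2.92 in sham 4 to 1.76 in sham 2, cartilage from -0.83 in sham 4 to 1.00 in sham 5, and the marrow lists stay within 0.31 of their mean.

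The leading pair of principal components of the 7585 genes held 50.8% and 24.9% of the variance. Genes were centred but not scaled, so genes of large SD lead the components by construction. Scores on the larger were 0.28, -0.50, -0.05, 0.70 and -0.43 for sham 1 to sham 5, the reverse of the muscle order. Of its 100 leading genes, 31 were muscle-listed and 12 were immunoglobulin segments, beside 0.409% and 1.56% of the 7585 genes. Scores on the smaller were -0.57, -0.46, 0.58, 0.13 and 0.32, with sham 1 and sham 2 apart from the rest. Of its 100 leading genes, 67 were immunoglobulin segments and 0 were muscle-listed.

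Spread was ranked by the SD of log2(FPKM + 1) among the 7585 genes. The median SD was 0.12, 165 genes exceeded 1 and 478 were under 0.05. Of the 100 most variable genes, 30 were muscle-listed, 39 were immunoglobulin segments and 0 were on the bone, cartilage or marrow lists. The same classes made up 0.409%, 1.56%, 0.448%, 0.237% and 1.37% of the 7585 genes. Muscle genes and variable segments can pass the filter of 5 FPKM through their high libraries alone, so their counts depend partly on it. The marrow lists hold Igkc, Ighm and Ighd but not the variable segments, which B cells also express, so the 0 for marrow depends on how the lists were drawn. By the coefficient of variation, 13 of the 100 most variable were muscle-listed. Among genes with a mean of at least 10 FPKM, Acta1, Mb, Tnnc2, Atp2a1 and Ckm were in the 12 most variable, beside 5 immunoglobulin segments, Mir8114 and 1 of the 2 IDs for Chtf8.

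Mir8114, a microRNA locus of 111 bases inside the glutamine synthetase gene Glul on the same strand, was 39.5, 0.121, 35.1, 49.7 and 0.0454 FPKM and headed the ranking. Glul itself was 75.6, 73.2, 70.9, 74.8 and 69.9 FPKM, a span of 1.08-fold. Of the 15 microRNA loci with a mean of at least 10 FPKM, 13 lay inside a coding gene on the same strand, Gm22133 in the ferritin gene Ftl1 among them. Poly(A) libraries do not measure mature microRNAs. Chtf8, a subunit of the clamp loader used in sister chromatid cohesion, has 2 IDs in the table; ENSMUSG00000117748 was 37.04, 0.258, 0.224, 27.8 and 0.375 FPKM, and the sum over both IDs was 48.1, 36.9, 41.3, 45.8 and 39.6 FPKM. The split between those IDs varied more than the sum.

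Genes in no list that ranked high and were not immunoglobulin segments largely shared the muscle order; they were chosen after their values were seen. Eef1a2, the translation elongation factor form of muscle and neurons, was 5.19, 38.2, 19.7, 0.661 and 33.7 FPKM. Cox8b, a cytochrome c oxidase subunit of heart and muscle, was 3.13, 33.7, 12.3, 0.662 and 22.6 FPKM. Ankrd23, a protein of the muscle sarcomere, was 11.6, 74.7, 23.9, 2.43 and 58.8 FPKM. Each was highest in sham 2 and lowest in sham 4.

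**Figure D4:**
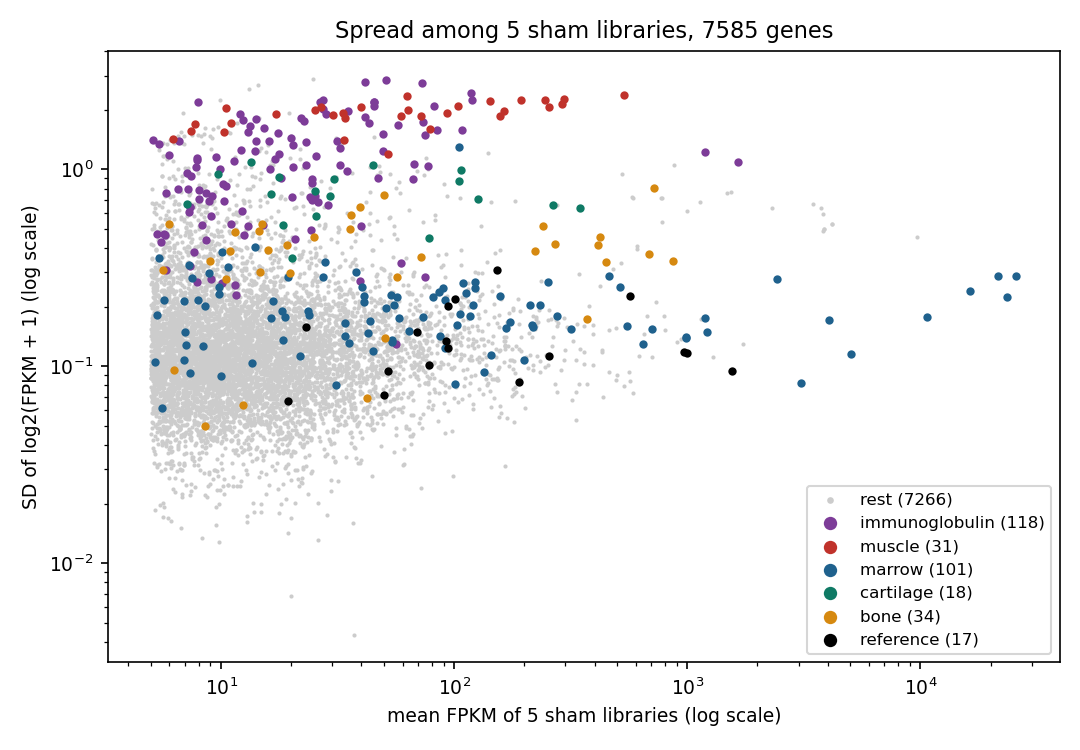
SD of log2(FPKM + 1) over 5 sham libraries against mean FPKM, both on log axes, for 7585 genes with a mean of at least 5 FPKM, coloured by class; the 3 marrow-listed immunoglobulin genes are drawn as immunoglobulin. Muscle genes lie between 1.19 and 2.39, marrow genes mostly near their median of 0.18, and Cwc15 is the lowest point.

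At the other end, 97 of the 100 most stable genes were protein-coding, beside 91.7% of all 7585 genes, and 0 were in any list, beside 3.61%. Cwc15 (ENSMUSG00000004096), a spliceosome-associated factor, was 37.5, 37.2, 37.3, 37.3 and 37.2 FPKM, an SD of 0.0043. Rab31, a small GTPase of vesicle traffic, was 20.05, 20.2, 19.9, 19.99 and 20.03 FPKM. Gosr2, a Golgi SNARE, was 25.9996, 26.3, 25.8, 25.9 and 26.4 FPKM. The other 9 of the 12 most stable genes with a mean of at least 10 FPKM spanned 1.03-fold to 1.04-fold. They were Ensa, Anapc5, Mical1, Rfk, Kat2b, Gde1, Clpp, Trim41 and Trpc4ap, which serve mitosis, the anaphase-promoting complex, actin, flavin synthesis, histone acetylation, lipid breakdown, mitochondrial proteolysis and ubiquitin ligation.

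How stable a gene looked depended on the scaling. When FPKM were rescaled to an equal total without muscle genes, 17 of the 100 genes remained among the 100 most stable, and with median-of-ratios scaling 38 did. Cwc15 then spanned 1.09-fold and 1.04-fold, against 1.01-fold as deposited. Clpp, the mitochondrial protease, spanned 1.12-fold and 1.02-fold. Over the 3 scales the 12 named genes spanned at most 1.12-fold, and their order changed. The rescaling without muscle genes also made the totals equal, which ran from 388072 to 423193 FPKM as deposited. The part of each step in the change was not tested.

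Genes in common use as references were spread over the ranking. Of 17 with a mean of at least 5 FPKM, 9 had an SD under the median of all genes. Gusb, a lysosomal glucuronidase, was 20.2, 18.3, 18.7, 20.4 and 18.9 FPKM and was the most stable of them. Ppib and Ppia, cyclophilins B and A, were 52.1, 48.02, 47.3, 48.6 and 52.9 FPKM and 188, 175, 205, 194 and 187 FPKM. Gapdh, a glycolytic enzyme abundant in muscle, was 114, 181, 174, 124 and 172 FPKM, and 10.9% of genes varied more. Actb, cytoplasmic actin, was 444, 534, 654, 646 and 567 FPKM, and 16.8% of genes varied more. Tfrc, the transferrin receptor of iron uptake, was 97.2, 79.95, 94.6, 115 and 84.04 FPKM, highest in sham 4 and lowest in sham 2. The part of muscle and erythroid content in the spread of these genes was not tested.

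**Figure D5:**
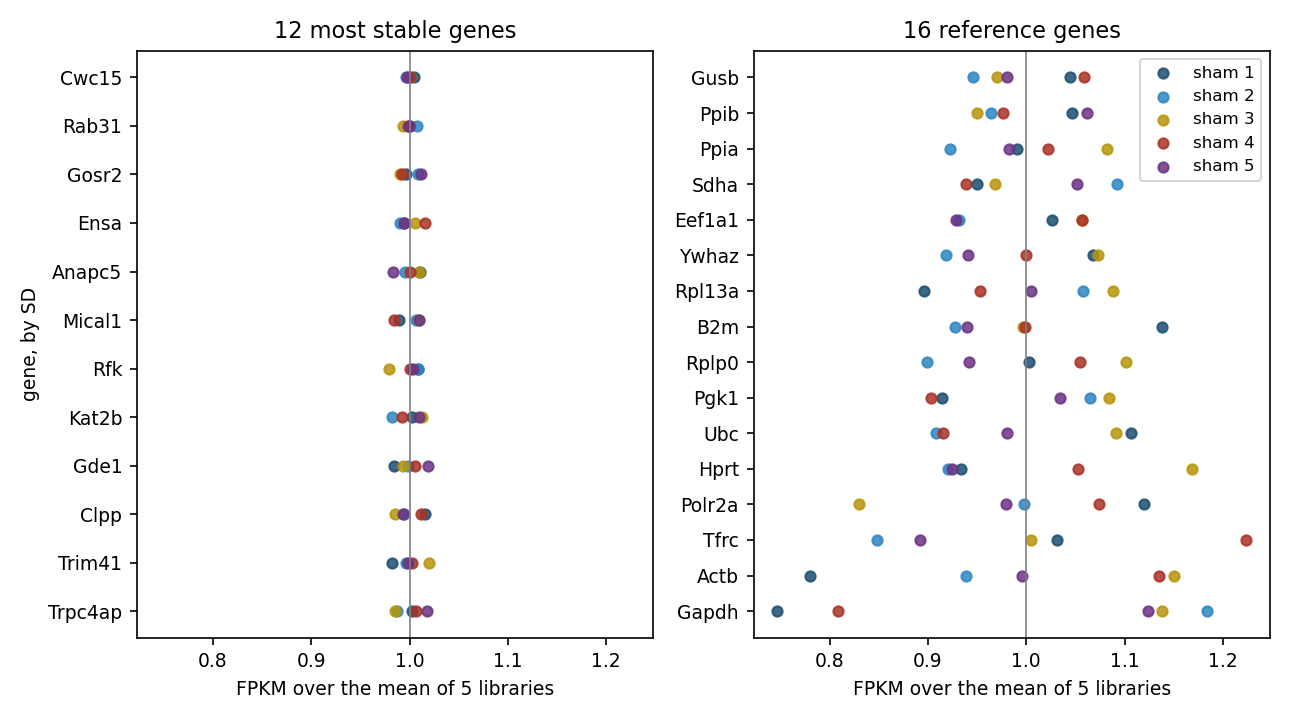
FPKM of each sham library over the mean of 5, for the 12 most stable genes with a mean of at least 10 FPKM (left) and 16 of the 17 reference genes (right), ordered by SD from top to bottom. The stable genes stay within a few percent of their mean, while Gapdh runs between 114 and 181 FPKM.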

How the data were processed

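The authors deposited gene levels in FPKM, as 1 table whose columns sham 1 to sham 5 matched the sample labels; 0 columns were left unmatched. The submitters' processing notes list, without roles, the mouse build GRCm39, STAR 2.7.10a, featureCounts 2.0.3, R 4.3.1, DESeq2 1.42.0, Trimmomatic 0.39 and FastQC 0.11.9; what computed FPKM is not stated there or in the labels. Without counts no interval or detection floor could be computed, and reads of overlapping genes or near-identical copies cannot be told apart. With 1 group there was no contrast and no test: values are given per library, as mean ± SD and as spans. Where nothing says that the animals were separate beyond the words biological replicate, the SD measures the spread between these libraries.

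Shares are sums of FPKM over a list divided by the library's total. Spread is the SD of log2(FPKM + 1) for genes with a mean of at least 5 FPKM; the pseudocount of 1 understates the spread of low genes. In simulated data of 7585 genes, every gene but 200 was given the same SD of 0.1206. There this ranking recovered 90.8% of the 200 when they had an SD of 0.5 and 99% at an SD of 1. The SDs in the data were not uniform, with a 95th percentile of 0.558, so these percentages do not carry over to the sham libraries. The 27 lists hold 381 genes, of which 380 were used. Members and lists were chosen with earlier results of these data known. Named genes were the 20 with the highest mean, the 12 most variable and the 12 most stable with a mean of at least 10 FPKM leaving out predicted loci, the 10 most variable in no list, up to 4 per list by mean, defining markers, reference genes, sex-linked genes and Pvalb. Bglap2, Runx2, Fgf23, Tcirg1, Clcn7, mt-Nd6, Ighd, Mpo, Retnlg, Igha, Glul, the myosins and the genes of the closing section were named after their values were seen. Symbols and gene overlaps come from an annotation of GRCm38, another build. Nuclear copies were found with BLAST 2.17.0 at 95% identity over at least 200 bases. Scripts ran in Python 3.11.15 with numpy 2.4.6, pandas 2.3.3 and matplotlib 3.10.9. A few listed genes entered the sums and counts and are not reported here by name.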

Additional observations from a re-analysis of the deposited data

Results flagged for a closer look

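A gene was singled out where 1 library lay apart from the other 4, the gap to the nearest library being over 0.71 of the whole range (Dixon's value for 5 samples), taken on log2(FPKM + 1) for genes and on the percent for shares. Of 217 values examined, 7 met this, or 3.23%, where chance gives about 5%. Camp was 3357 FPKM in sham 3, above the other 4 libraries. The variable segment Igkv4-63 was 247 FPKM in sham 1 and Igkv10-94 was 203 FPKM in sham 2, each above the other 4. C1qb was 93.6 FPKM in sham 2 and Vpreb1 was 5.81 FPKM in sham 5, each below the other 4. Trbc2 was 11.2 FPKM in sham 1, above the rest. Krtdap, a skin gene, was 0.0252 FPKM in sham 4 and listed at 0 in the other 4.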

How the results depend on the processing

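Of 117 alternatives to the 11 summary results, 95 left the value within its spread or within 1.5 times the count, 22 moved it and 0 reversed it. The mean bone share of 1.31% was 1.90% with the 10 most abundant other IDs out of the total, 0.790% without genes that other cell types also express and, in an alternative added after seeing the data, 1.67% with the 4 globin genes out of the total. The cartilage share of 0.321% was 0.154% without such shared genes. The marrow share of 32.0% was 13.2% without the globin genes in list and total, also added. At thresholds of 0.1 and 5 FPKM, 19946 and 7585 IDs were counted in place of 13290. Without mitochondrial genes, 113 IDs held 50% of FPKM, against 75. Of the 100 most stable genes, 66 were shared with a filter of 1 FPKM, 56 with a filter of 10 FPKM, 0 with no filter, 38 with median-of-ratios scaling and 17 with totals made equal without muscle genes. Muscle-listed genes among the 100 most variable numbered 13 by the coefficient of variation, against 30, and marrow-listed genes 2 with a filter of 10 FPKM and 1 without immunoglobulin genes (added), against 0. The cause was not tested, beyond what each alternative removes by construction.

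Leaving out each library in turn gave bone 1.26% to 1.40%, cartilage 0.265% to 0.360%, marrow 30.9% to 33.2%, muscle 0.596% to 0.972%, 13225 to 13328 IDs at 1 FPKM, 71 to 80 IDs holding 50%, 19 to 20 of the 20 most abundant, 79 to 94 of the 100 most variable and 39 to 60 of the 100 most stable genes, 23 to 31 muscle-listed and 0 to 2 marrow-listed genes among the most variable, the 2 without sham 4. Shares of the total do not depend on the scaling. Depth is unknown, so counting error could not be separated from other sources of the spread between these libraries. No paired analysis was possible because the data are 1 group.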

Other observations

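Some genes in none of the lists were low or high in 1 library alone. They were chosen after their values were seen. The split between the IDs of Chtf8 varied between libraries, and whether reads of these genes went to another ID was not tested. Gpx1, the selenoenzyme that removes hydrogen peroxide, was 1003, 884, 1146, 1149 and 204 FPKM in sham 1 to sham 5, with sham 5 below the other 4. Mob1a, a Hippo pathway coactivator of kinases, was 59.0, 52.2, 4.85, 57.3 and 53.0 FPKM, with sham 3 low. Rac1, a small GTPase of the cytoskeleton, was 27.2, 71.8, 73.7, 71.1 and 76.4 FPKM, with sham 1 low. Fen1, the flap endonuclease of DNA replication, was 20.2, 14.7, 58.0, 20.8 and 15.8 FPKM, with sham 3 high. Evi2b, a membrane protein of blood cells, was 36.0, 41.9, 85.7, 33.0 and 37.3 FPKM, also with sham 3 high. Evi2, listed under its own ID, was 41.9, 34.3, 3.99, 43.5 and 41.7 FPKM, with sham 3 low. Evi2b and Evi2 thus moved in opposite directions in sham 3, and whether reads were split between their IDs was not tested. Rdx, the membrane-cytoskeleton linker radixin, was 28.4, 27.8, 25.98, 28.0 and 8.23 FPKM and Tomm5, a subunit of the mitochondrial import pore, was 26.4, 28.0, 32.2, 26.7 and 7.40 FPKM, both with sham 5 low.

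Among 4590 genes with a mean of at least 10 FPKM, 242 (5.27%) had 1 library apart by the same measure, where chance gives about 5%. The gap exceeded 1 log2 unit in 24 of them: 4 were immunoglobulin segments, 1 a microRNA locus and 19 neither, of which 12 were low and 7 high in the library concerned. By library, 24, 50, 106, 26 and 36 of the 242 were set apart in sham 1 to sham 5.

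C5ar1, the receptor for complement C5a on neutrophils, fell into a pair of levels: 3.31, 27.7, 32.5, 31.3 and 4.53 FPKM, low in sham 1 and sham 5. Fam107b was 7.96, 61.2, 12.2, 8.94 and 65.3 FPKM, high in sham 2 and sham 5. Other neutrophil genes did not split this way; Csf3r, the G-CSF receptor, was 130.4, 129.6, 125, 143 and 145 FPKM. Genes of cell division took 0.271, 0.225, 0.248, 0.304 and 0.217% of total FPKM, and 15 of 17 were highest in sham 4, as were 16 of 20 erythroid genes, beside 32.4% of all 7585 genes. Nr1d1, a repressor of the circadian clock, was 7.11, 16.2, 10.5, 5.73 and 18.2 FPKM and Dbp, a clock output factor, was 2.82, 7.57, 5.42, 2.96 and 4.69 FPKM. The interferon-induced genes Isg15 and Rsad2 were 103, 57.9, 103, 93.8 and 70.2 FPKM and 58.2, 37.8, 52.8, 59.2 and 38.3 FPKM, both lowest in sham 2 and next lowest in sham 5. Of the 4 interferon-listed genes with a mean of at least 5 FPKM, 2 were lowest in sham 2, 1 in sham 4 and 1 in sham 5.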
